A study of Mus musculus with 15 samples.

Results

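The cathepsins are proteases found mainly in lysosomes. The 10 cathepsin genes described here, Ctsa, Ctsb, Ctsc, Ctsd, Ctse, Ctsh, Ctsk, Ctsl, Ctss and Ctsz, were taken by name, as a fixed set of symbols looked up beside the non-control probes of the array files. The rule uses no measured value, but the set was named with earlier results of these data known, and other cathepsins on the array, such as Ctsw and Ctsf, are outside it. They were read by 13 probes, with a pair of probes each for Ctsa, Ctsc and Ctsd, out of 46287 features (genes and unnamed probes) on the array. RNA was measured on 15 single-colour Agilent arrays of primary mouse lung cells. Fibroblasts came from cultures of at least 3 passages and underwent 24 h of starvation ahead of treatment. Alveolar type II (ATII) cells, the surfactant-making cells of the alveolus, formed a monolayer over 3 days of culture at an air-liquid interface. Each cell type then received phosphate-buffered saline as vehicle or 1 mM BAPN, an inhibitor of the lysyl oxidases that cross-link collagen and elastin, for 24 h. Fibroblasts gave 4 arrays with vehicle and 3 with BAPN (no replicate 3), ATII cells gave 4 with each, and the fourth ATII BAPN array, called replicate 5, is labelled as a replacement without a number. Strain, age and genotype of the mice were not named in the labels, nor is it stated whether replicates came from separate animals or cultures, so p-values reflect sample-to-sample spread that may be only technical. The cell types also differed in culture (passaged and starved against grown at an air-liquid interface), so that cell type and culture cannot be told apart.

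Cathepsins are made as inactive precursors, tagged with mannose 6-phosphate, carried to the lysosome and activated there by cleavage at acid pH. Ctsb, Ctsc, Ctsh, Ctsk, Ctsl, Ctss and Ctsz are cysteine proteases of the papain family, Ctsd and Ctse are aspartic proteases, and Ctsa is a serine carboxypeptidase. Some have further roles. Ctsk is a strong collagenase of osteoclasts and fibroblasts, Ctss and Ctsl trim the invariant chain during antigen presentation, and Ctsh takes part in the maturation of surfactant proteins in ATII cells. Cystatins are natural inhibitors of the cysteine cathepsins.

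Values are normalized log2 levels, the log2 intensity of a probe minus the 75th percentile of its array, so that 0 is the brightness that 75% of probes do not reach. A difference of 1 is a change of 2-fold, and levels of different probes are not compared. Between 65.2% and 71.2% of spots on an array were well above background and 0 were saturated, and the number of arrays limits the precision. Slide 1 held 2 fibroblast vehicle, 1 fibroblast BAPN, 2 ATII vehicle and 3 ATII BAPN arrays, and slide 2 held the rest. The labelled cell types were checked against markers. Of the 12 ATII markers, 8 of 10 tested were higher in ATII cells in vehicle and 0 were lower, among them Sftpc, the gene of surfactant protein C, which was well above background on all 4 ATII vehicle arrays and on 0 of 4 fibroblast vehicle arrays. Slc34a2 was well above background on no ATII array. Abca3 (means 2.69 in ATII cells and 2.59 in fibroblasts) and Etv5 (3.71 and 3.56) hardly differed in vehicle. Of 15 fibroblast markers 7 were lower and 1 higher in ATII cells, but all 15 were well above background on every ATII array. In vehicle Col1a1 (means 7.86 in ATII cells and 7.79 in fibroblasts), Col1a2 (8.78 and 8.75), Fn1 (8.53 and 8.55) and Vim (7.80 and 7.91) were nearly level. Thy1 (4.51 and 7.41) and S100a4 (2.93 and 8.32) were lower. Of 8 airway markers 7 were tested in vehicle, and 4 were higher and 0 lower in ATII cells. Scgb1a1 had means of 1.72 in ATII cells and -2.42 in fibroblasts, and Foxj1 of -0.46 and -6.49. The part of fibroblast and airway transcripts in the ATII levels below was not tested. The arrays labelled as fibroblasts also carried macrophage and leukocyte transcripts: 19 or 20 of 20 such markers were well above background on each fibroblast array, against 14 to 17 on each ATII array. Their mean level ran from 0.19 to 1.29 on fibroblast vehicle arrays and from -2.94 to -2.26 on ATII vehicle arrays, and 18 of the 19 tested were lower in ATII cells (1, Cd14, was higher). Several cathepsins are abundant in macrophages, and the part of these transcripts in the results below was not tested except where a value is given. In cultures measured in bulk, fewer cells of a type and less RNA per cell cannot be told apart.

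The largest differences among the cathepsins lay between the cell types. In vehicle, Ctse and Ctsc were higher in ATII cells, Ctss, Ctsk, Ctsa, Ctsd and Ctsz were lower, and Ctsb, Ctsl and Ctsh did not pass the test. That is 7 of 10 members at an adjusted p below 0.05 (limma over all features with Benjamini-Hochberg adjustment), where 31.1% of the 32470 features tested passed. Ctse entered the test through its ATII arrays alone, being below background on every fibroblast array, and 6 of the 9 other members passed. The median log2 change (ATII minus fibroblasts) of those 9 was -0.57, against -0.13 over all features tested. The values of the 2 vehicle groups did not overlap for the same 7 genes, Ctse included, and did not overlap for 34.6% of all features. Under BAPN the direction was the same for all 7, and 5 of 10 passed (Ctse, Ctsc, Ctss, Ctsk and Ctsa), where 29% of 32268 features passed. Of the 9 members other than Ctse, 4 passed. On slide 2 alone, with 1 ATII BAPN array, Ctsa, Ctsc and Ctsk did not pass under BAPN (log2 changes -0.59, 2.24 and -0.76).

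**Figure D1:**
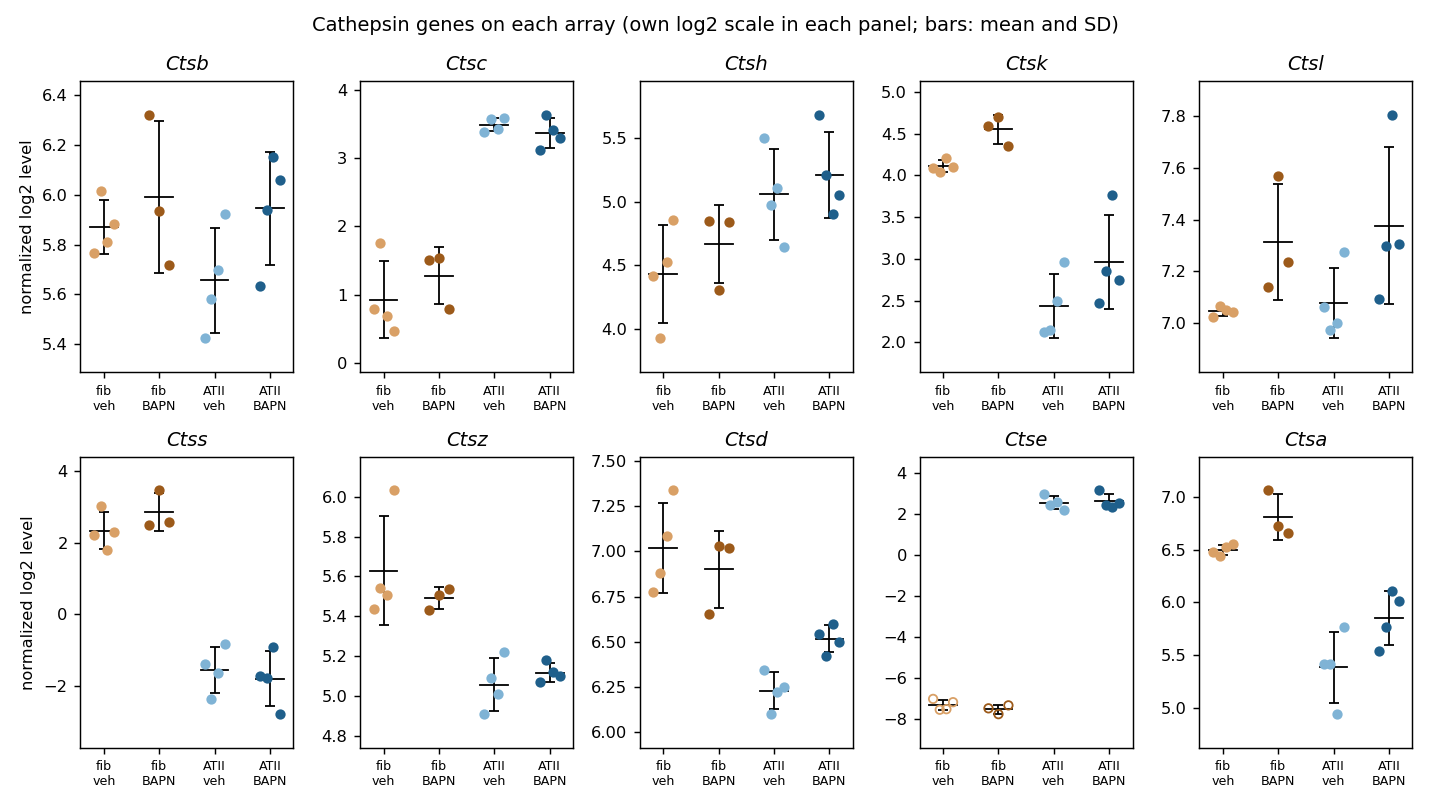
Normalized log2 level of each cathepsin gene on each of the 15 arrays, by group, each panel on its own vertical scale. Points are arrays in replicate order (open where the probe was not well above background), and bars give the mean and SD. Ctse is far apart between the cell types, Ctsc, Ctss, Ctsk and Ctsa separate without overlap, and Ctsb and Ctsl overlap.

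Ctse, an intracellular aspartic protease of epithelia and immune cells found mainly in endosomes, gave the widest contrast. Its probe (mm9, chr1:133571990-133572049) was well above background on all 8 ATII arrays and on 0 of 7 fibroblast arrays. The ATII vehicle arrays read 3.02, 2.45, 2.61 and 2.23 for replicates 1 to 4, and the fibroblast vehicle arrays read -7.02, -7.55, -7.52 and -7.18. Every ATII array thus stood far above every fibroblast array, whose signals are not measured levels but bounds. Against the detection limit, Ctse in ATII cells stood at least 200.1-fold higher in vehicle and at least 257-fold higher under BAPN. These bounds hold for the processing used here. Over the alternatives the fitted log2 change was as low as 5.965 in vehicle and 6.102 under BAPN, which is below them. The fit's adjusted p (8.75e-12 and 1.65e-11, limma) compares detected levels with signals below background, and is no measure of support for the bound. Here the bound sets the mean of the ATII arrays against a limit taken on each fibroblast array, the probe's own signal or the dimmest detected signal, whichever was higher.

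Ctsc, the dipeptidyl peptidase that activates the serine proteases of granulocytes and lymphocytes, was also higher in ATII cells. Its brighter probe (mm9, chr7:95458436-95458495) read 0.79, 1.75, 0.68 and 0.47 on fibroblast vehicle replicates 1 to 4 and 3.38, 3.57, 3.42 and 3.59 on ATII vehicle replicates 1 to 4. The ATII arrays lay close together, the fibroblast arrays spread more because replicate 2 was high, and the groups were far apart. The log2 change was 2.57 ± 0.25 (SE), or 5.92-fold, with an adjusted p of 4.05e-06. Under BAPN it was 2.08 ± 0.27, or 4.23-fold. The dimmer Ctsc probe (mm9, chr7:95435428-95435487) differed by 1.59 in vehicle and by 1.52 under BAPN, in the same direction.

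Ctss, the cysteine protease that antigen-presenting cells use to cut the invariant chain, showed the largest fall. Its probe (mm9, chr3:95360245-95360304) read 2.22, 3.02, 1.79 and 2.28 on fibroblast vehicle replicates 1 to 4. On ATII vehicle replicates 1 to 4 it read -1.38, -2.37, -1.64 and -0.81. All ATII arrays were well above background yet below every fibroblast array, with a log2 change of -3.88 ± 0.41 (SE), 14.7-fold lower (adjusted p 9.46e-06, limma). Under BAPN the fall was 24.9-fold (log2 change -4.64 ± 0.45), with fibroblasts at 2.50, 3.45 and 2.58 and ATII cells at -1.71, -1.78, -0.92 and -2.78. The leukocyte markers moved with Ctss array by array. Fibroblast replicate 2 had the highest Ctss level and the highest marker mean in both treatments (1.29 in vehicle and 1.30 under BAPN, on the log2 scale), and ATII vehicle replicate 2 had the lowest of its group in both. Deviations of Ctss from its group means correlated with those of the marker mean at r = 0.85 over the 15 arrays, which share 2 slides. For the other members this r ran from -0.44 for Ctsh to 0.53 for Ctsc. The part of leukocyte RNA in the fall of Ctss was not tested.

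**Figure D2:**
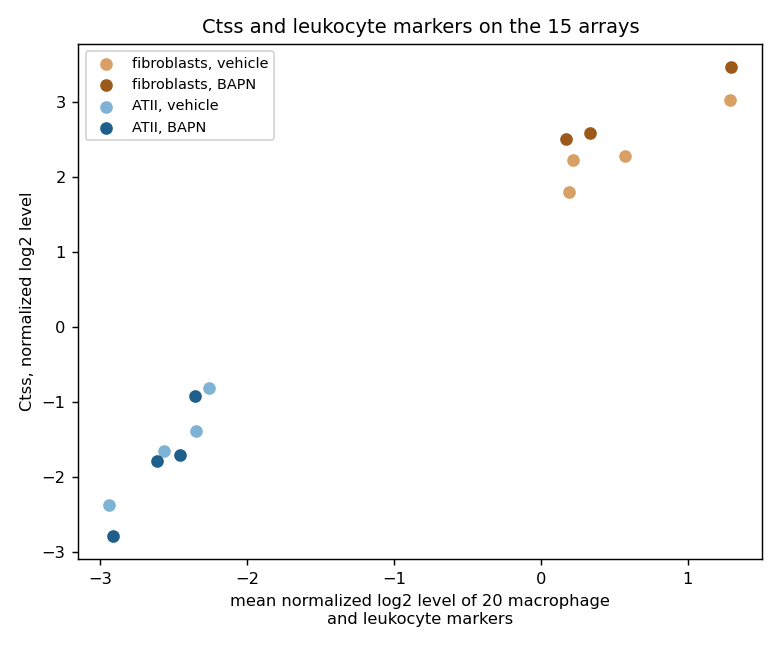
Ctss against the mean of 20 macrophage and leukocyte markers on each of the 15 arrays, both as normalized log2 levels, coloured by group. The 7 fibroblast arrays lie at the upper right and the 8 ATII arrays at the lower left, and in both fibroblast groups the array with the highest marker mean, replicate 2, had the highest Ctss level.

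Ctsk, the collagen-degrading cathepsin, is the chromosomal neighbour of Ctss. Its probe (mm9, chr3:95313165-95313224) read 4.09, 4.05, 4.21 and 4.10 on fibroblast vehicle replicates 1 to 4 and 2.13, 2.15, 2.50 and 2.96 on ATII vehicle replicates 1 to 4. The fibroblast arrays were nearly level with each other and all stood above the ATII arrays. The log2 change was -1.68 ± 0.25 (SE), 3.20-fold lower, with an adjusted p of 0.00017. Under BAPN it was -1.59 ± 0.27 (adjusted p 0.000556, limma), but ATII BAPN replicate 4 stood at 3.77 against 2.47 to 2.86 for the other ATII BAPN arrays, and on slide 2 alone, where it is the only ATII BAPN array, the change was -0.76 and did not pass. In RefSeq (GRCm38.p6) the start sites of Ctsk and Ctss lie 27.58 kb apart on the same strand of chromosome 3. Because both neighbours fell, the 250 bases before each start site are shown, with capitals marking GAGGAA on either strand, the core of sites bound by Ets factors such as Spi1 of the macrophage lineage. The Ctsk stretch is chr3:95498960-95499209 and the Ctss stretch is chr3:95526536-95526785, both on the plus strand.
Ctsk: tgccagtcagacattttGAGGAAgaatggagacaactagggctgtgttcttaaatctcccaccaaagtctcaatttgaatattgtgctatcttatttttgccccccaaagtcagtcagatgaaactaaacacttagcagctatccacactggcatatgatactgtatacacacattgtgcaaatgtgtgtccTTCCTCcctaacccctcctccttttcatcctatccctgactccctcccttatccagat
Ctss: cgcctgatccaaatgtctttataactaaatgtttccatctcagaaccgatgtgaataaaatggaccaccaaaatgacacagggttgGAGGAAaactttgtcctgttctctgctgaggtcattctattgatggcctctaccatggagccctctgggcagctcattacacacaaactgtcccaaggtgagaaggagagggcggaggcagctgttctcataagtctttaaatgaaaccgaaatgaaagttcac
GAGGAA was found in the windows of Ctsk, Ctss and Ctsc (each from 250 bases before to 50 after the start), at bases -233 and -58 for Ctsk and at -164 and 1 for Ctss, and in 28.3% of all 32851 promoter windows. Ctsc, which also holds the match, was higher in ATII cells, where Ctsk and Ctss were lower. The Spi1 probe was well above background on 1 of 4 fibroblast vehicle arrays, 2 of 3 fibroblast BAPN arrays and no ATII array. A match of letters is a description and not a bound site.

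Ctsa, the carboxypeptidase that also protects neuraminidase 1 and beta-galactosidase in the lysosome, was lower in ATII cells. Its brighter probe (mm9, chr2:164665023-164665082) read 6.48, 6.44, 6.53 and 6.55 on fibroblast vehicle replicates 1 to 4 and 5.41, 5.42, 4.94 and 5.76 on ATII vehicle replicates 1 to 4. The fibroblast arrays lay within a narrow band that no ATII array reached. The log2 change was -1.12 ± 0.17 (SE), 2.17-fold lower (adjusted p 0.000236, limma), and under BAPN it was -0.96 ± 0.19, 1.95-fold lower (adjusted p 0.00157). The dimmer Ctsa probe (mm9, chr2:164666433-164666492) was lower too, with log2 changes of -0.74 in vehicle and -0.44 under BAPN.

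Ctsd, the main aspartic protease of lysosomes, was lower by less. Its brighter probe (mm9, chr7:149561962-149562021) read 6.77, 6.88, 7.08 and 7.34 on fibroblast vehicle replicates 1 to 4 and 6.34, 6.10, 6.22 and 6.25 on ATII vehicle replicates 1 to 4. The groups did not overlap, and the log2 change was -0.79 ± 0.13 (SE), 1.73-fold lower (adjusted p 0.000455, limma). Under BAPN the ATII arrays (6.42 to 6.60) again all lay below the fibroblast arrays (6.65 to 7.03), but the change of -0.38 ± 0.14 had an adjusted p of 0.0614. That p became 0.0218 without fibroblast BAPN replicate 1 (change -0.51). It became 0.0302 without fibroblast vehicle replicate 4, an array in neither of these groups, with the change still at -0.38 and the SE at 0.12. The dimmer probe of Ctsd gave larger differences, -1.15 in vehicle and -1.04 under BAPN. With the mean of both probes standing for Ctsd, the BAPN change was -0.71 with an adjusted p of 0.00121, so the call depends on the probe. The dimmer probe is shown because its 60 bases match a stretch of 1659 bases of the genome (mm9, chr7:149566847-149568505, minus strand) and therefore cross an exon junction.
Ctsd probe: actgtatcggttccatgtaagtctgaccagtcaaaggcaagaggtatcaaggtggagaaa

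Ctsa and Ctsd were both lower in ATII cells, but deviations from their group means correlated at r = -0.07 over the 15 arrays. Their promoters are shown with capitals marking CACGTG. This is the core of the lysosomal gene motif bound by the TFEB family, and it reads the same on both strands. The Ctsa stretch (GRCm38.p6, chr2:164833523-164833772, plus strand) belongs to the downstream of 2 listed Ctsa windows, and the Ctsd stretch is chr7:142387828-142388077, minus strand. Each holds the 250 bases before the start site.
Ctsa: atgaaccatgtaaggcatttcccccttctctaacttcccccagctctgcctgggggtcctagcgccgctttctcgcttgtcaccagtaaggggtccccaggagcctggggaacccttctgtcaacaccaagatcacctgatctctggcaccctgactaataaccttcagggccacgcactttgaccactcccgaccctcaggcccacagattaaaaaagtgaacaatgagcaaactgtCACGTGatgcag
Ctsd: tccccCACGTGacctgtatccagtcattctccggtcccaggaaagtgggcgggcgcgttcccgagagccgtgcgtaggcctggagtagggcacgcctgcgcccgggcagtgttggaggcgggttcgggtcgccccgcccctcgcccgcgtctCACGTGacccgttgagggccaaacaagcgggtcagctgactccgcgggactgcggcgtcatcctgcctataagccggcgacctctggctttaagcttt
CACGTG stood at bases -12 and 6 in that Ctsa window, at -245 and -98 for Ctsd, at -236 for Ctsl, which did not pass the test, and in none of the other 5 windows of the 7 members matched, the upstream Ctsa window included. It was found in 7.15% of all promoter windows. Ctsb, Ctse and Ctsh had no window among the promoter windows used, so they were not searched for CACGTG or GAGGAA.

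**Figure D3:**
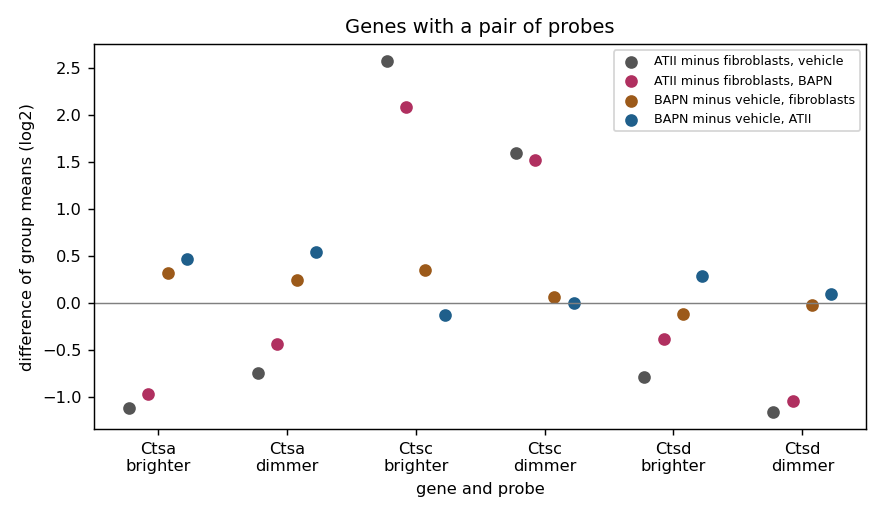
Differences of group means on the log2 scale for the brighter and the dimmer probe of Ctsa, Ctsc and Ctsd; points are 4 contrasts per probe. Both probes of a gene fell on the same side of 0 in both cell type contrasts, and for Ctsd the dimmer probe differed more (-1.15 against -0.79 in vehicle).

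Ctsz, a carboxypeptidase that also binds integrins, showed the smallest difference that passed. Its probe (mm9, chr2:174253228-174253287) read 5.44, 5.54, 5.51 and 6.03 on fibroblast vehicle replicates 1 to 4 and 4.91, 5.09, 5.01 and 5.22 on ATII vehicle replicates 1 to 4. All fibroblast arrays were higher, and replicate 4 stood above the others. The log2 change was -0.57 ± 0.13 (SE), 1.49-fold lower (adjusted p 0.00352, limma). It did not pass on slide 2 alone (-0.63, adjusted p 0.11) or after a surface over spot positions from the mean of all arrays had been subtracted (-0.42, adjusted p 0.0588), but it passed with a surface from group means (-0.57, adjusted p 0.00741). Under BAPN the change was -0.37 ± 0.14 with an adjusted p of 0.0571 (limma), and the groups did not overlap. Fibroblast vehicle replicate 4 is in neither of these groups. Without it the change stayed at -0.37, the SE fell to 0.09 and the adjusted p was 0.00937.

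The remaining 3 members did not pass between the cell types. Ctsb, an abundant lysosomal endopeptidase and carboxydipeptidase, had means of 5.87 ± 0.11 in fibroblasts and 5.66 ± 0.21 in ATII cells in vehicle (SD, n = 4 each), and the 95% interval of its log2 change ran from -0.55 to 0.13. Ctsl, the broad endopeptidase of lysosomes, had means of 7.05 ± 0.02 and 7.08 ± 0.14 (SD, n = 4 each), with an interval from -0.29 to 0.35. For both, the interval lay inside a 2-fold difference, and a smaller one was not resolved. Ctsh, an aminopeptidase, read 4.42, 3.92, 4.53 and 4.85 on fibroblast vehicle replicates 1 to 4 and 5.50, 4.97, 5.11 and 4.64 on ATII vehicle replicates 1 to 4. Replicate 4 was the highest fibroblast array and the lowest ATII array, and these overlapped. The log2 change of 0.63 ± 0.24 (SE) had an adjusted p of 0.0642 (limma), and it became 0.046 with slide as a block, 0.0327 without fibroblast vehicle replicate 4 and 0.03785 without ATII vehicle replicate 4. Under BAPN the Ctsh groups did not overlap (4.31 to 4.85 in fibroblasts, 4.90 to 5.69 in ATII cells), with an adjusted p of 0.137. Of the 9 members other than Ctse, 7 did not overlap between the BAPN groups, where 34% of all features did not overlap.

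**Figure D4:**
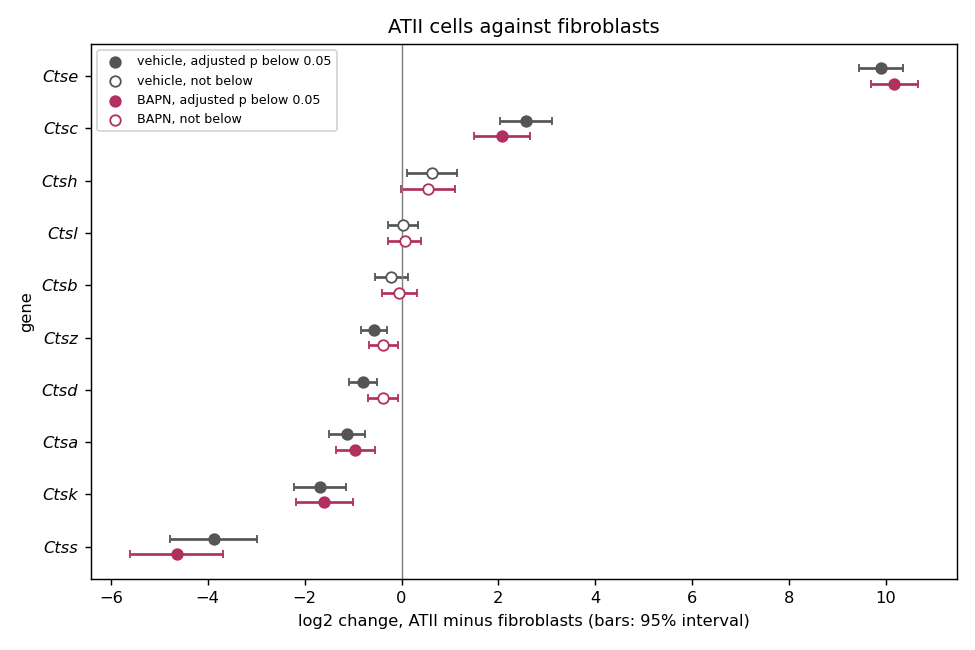
Log2 change of each cathepsin gene, ATII cells minus fibroblasts, in vehicle and under BAPN, with 95% intervals from the fit; filled points had an adjusted p below 0.05. Ctse and Ctsc lie to the right of 0, and Ctss, Ctsk and Ctsa to the left, in both treatments. The Ctse points rest on fibroblast signals below background, so only the bounds of at least 200.1-fold and 257-fold apply to them, under the processing used here.

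BAPN is a small amine that blocks lysyl oxidases, and the second question of the design is whether it changed these genes. No cathepsin passed. In fibroblasts 0 of 9 members tested were called by limma (Ctse could not be tested there, being below background), where 13.1% of 32255 features were called. There 0 of these members and 8646 of all features had an unadjusted p below 0.05. In ATII cells 0 of 10 were called, where 0% of 32045 features were called, and 2 members (Ctsa and Ctsd) had an unadjusted p below 0.05, as had 3236 of all features. For the difference between the effects (ATII minus fibroblasts), which has no meaning for Ctse, 0 of the 9 other members were called, where 0% of 34287 features were called, with 0 of these members and 4723 features at an unadjusted p below 0.05. All 28 other settings tried also called 0 members in these 3 comparisons.

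The sizes of the BAPN effects were small and mostly above 0. In fibroblasts the log2 changes (BAPN minus vehicle) ran from -0.14 for Ctsz to 0.51 for Ctss, with a median of 0.27 over the members tested against 0.02 over all features, and 7 of 9 were above 0, as were 52.4% of all features. In ATII cells they ran from -0.24 for Ctss to 0.53 for Ctsk, with a median of 0.22 against -0.000537 over all features. Of the 10 members 8 were above 0, as were 49.9% of all features. For Ctsk, ATII BAPN replicate 4 stood at 3.77 against 2.47 to 2.86 for the others. Over the alternatives the Ctsk change in ATII cells was as low as 0.26. The 95% interval lay inside a 2-fold change for 7 of 9 members in fibroblasts (all but Ctss and Ctsk), as for 60.6% of features, and for 8 of 10 in ATII cells (again all but Ctss and Ctsk), as for 69.7% of features.

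Ctsa gave the lowest p of the members in ATII cells. The BAPN arrays read 5.53, 5.77, 6.11 and 6.02 for replicates 1, 3, 4 and 5 against 4.94 to 5.76 in vehicle, so the groups overlapped. The log2 change was 0.47 ± 0.17 (SE), 1.39-fold, with an adjusted p of 0.474 (limma). In fibroblasts the Ctsa BAPN arrays (7.07, 6.73 and 6.66) all lay above the vehicle arrays (6.44 to 6.55), by 0.32 ± 0.19 with an adjusted p of 0.306. Ctsd in ATII cells read 6.54, 6.42, 6.60 and 6.50 for BAPN replicates 1, 3, 4 and 5, all above the vehicle arrays (6.10 to 6.34), by 0.29 ± 0.13 with an adjusted p of 0.474. Its dimmer probe differed by 0.10. Values did not overlap for Ctsa, Ctsk and Ctsl in fibroblasts, where 24% of all features did not overlap, and for Ctsd alone in ATII cells, where 9.1% did not. For Ctsk the fibroblast BAPN arrays read 4.60, 4.70 and 4.36 against 4.05 to 4.21 in vehicle, a change of 0.44 ± 0.27 with an adjusted p of 0.323. For Ctsl they read 7.14, 7.57 and 7.24 against 7.02 to 7.07, a change of 0.27 ± 0.16 with an adjusted p of 0.309.

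**Figure D5:**
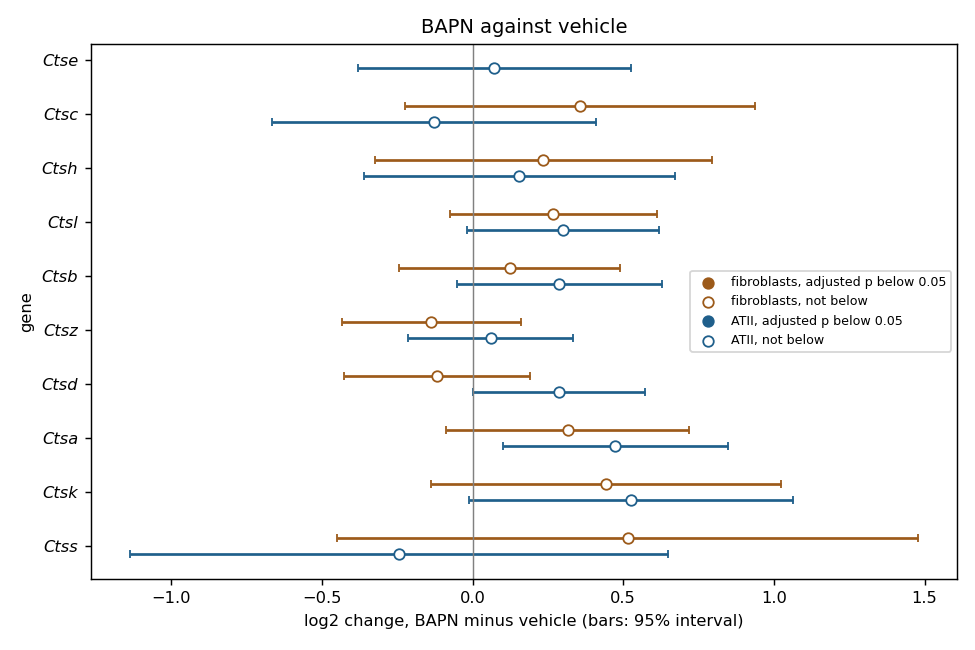
Log2 change of each cathepsin gene, BAPN minus vehicle, in fibroblasts and in ATII cells, with 95% intervals from the fit; open points did not pass and no gene passed. The Ctse change in fibroblasts is not drawn because its probe was below background there. Most points lie between 0 and 0.53, and the intervals of Ctss are the widest.

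Called features in the fibroblast BAPN comparison were unevenly spread over the array: 24.7% of features in columns above 82 of 164 were called, against 1.36% in the other columns. Of the members, Ctss (column 164), Ctsk (162), Ctsl (156), Ctsh (153), Ctsd (98) and Ctsa (89) lie in the first of these regions and Ctse (79), Ctsz (54), Ctsb (38) and Ctsc (28) in the other, and members of both were not called. Among themselves, after each group's mean was removed, Ctsk and Ctsl varied most alike over the 15 arrays (r = 0.86), followed by Ctse and Ctsh (r = 0.83, with Ctse below background on 7 arrays). Ctsc and Ctsh were the most opposed (r = -0.69). Ctsk and Ctsl lie near the same edge of the array, and their r was 0.88 and 0.89 after either position surface was subtracted. ATII BAPN replicate 4 stood above the other ATII BAPN arrays for both genes. It read 3.77 for Ctsk (others 2.47 to 2.86) and 7.81 for Ctsl (others 7.09 to 7.31). The part of that array in their r was not tested.

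The genes whose profile over all 15 arrays was most like that of a strongly differing member, by Pearson's r, were mostly other genes that separate the cell types. Ctse was most like Cdh1, the epithelial cadherin (r = 0.9998, within groups 0.93), and Nectin4, an adhesion protein of epithelia (r = 0.9995, within groups 0.94). Ctse and Cdh1 were both below background on all 7 fibroblast arrays, so that these values rest on a detected group against a floor, and 7 of the 15 deviations within groups are background signal. Ctss was most like Lilrb4a (r = 0.999, within groups 0.98), an inhibitory receptor of myeloid cells, and Tyrobp (r = 0.996, within groups 0.96), the signalling adaptor of myeloid receptors. Ctsc was most like Nox4, an NADPH oxidase (r = 0.99), and Capn6 (r = 0.98). For Ctsk these were Hcfc1r1 (r = 0.99) and Prss12 (r = 0.98), and for Ctsa Sumf1, the enzyme that activates sulfatases (r = 0.98), and Apba1 (r = 0.97). These values are descriptions over arrays that share 2 slides and fall into 2 cell types.

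The other genes of the family and its pathway were taken from fixed lists. Their counts between the cell types in vehicle are to be read beside the 31.1% of all features tested that passed. Of 15 other cathepsins and related proteins, 7 were tested in vehicle, and 2 were higher and 3 lower in ATII cells, with a median log2 change of -0.20. Ctsw, a cathepsin of cytotoxic lymphocytes, had mean levels of 3.48 in ATII cells and -1.27 in fibroblasts, a log2 change of 4.75 ± 0.20 (SE), or 26.9-fold (adjusted p 2.06e-09, limma). Tinag, a catalytically inactive relative of the cathepsins, was at least 39.2-fold higher under the processing used here. Its fitted log2 change was as low as 3.541 over the alternatives. Ctsf was 2.35-fold lower and the inactive relative Tinagl1 was 1.91-fold lower. Ctso was 1.83-fold lower, a call that was lost in 8 of 28 alternatives, among them those without fibroblast vehicle replicate 1 or 3 or ATII vehicle replicate 1 or 2. Ctsg, the serine protease of neutrophils, did not pass (adjusted p 0.768).

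Of 11 cystatins tested, 2 were lower in ATII cells and 0 higher, a share below the 31.1% of all features. Cst3, the abundant secreted cystatin C, had means of 5.46 in ATII cells and 6.72 in fibroblasts, 2.40-fold lower (log2 change -1.26 ± 0.11 (SE), adjusted p 1.79e-06, limma). Cst6, an inhibitor of legumain and of cathepsins, was 6.93-fold lower. Cstb, the inhibitor in the cytosol, differed by -0.01 with an adjusted p of 0.972.

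Of 7 genes of processing and activation tested, 3 were higher and 2 lower in ATII cells. Cd74, the invariant chain that Ctss and Ctsl cut, was 23.1-fold higher in ATII cells (adjusted p 1.15e-06, limma), in which Ctss was lower. Napsa, an aspartic protease that ATII cells use for surfactant protein, was 3.87-fold higher and Tpp2 1.46-fold higher, while the peptidases Dpp7 and Tpp1 were 2.81-fold and 1.37-fold lower. The call of Tpp1 was lost in 9 of 28 alternatives, among them those without fibroblast vehicle replicate 2, 3 or 4 or ATII vehicle replicate 1 or 2, and that of Tpp2 in 4, among them those without fibroblast vehicle replicate 3 or ATII vehicle replicate 2. Lgmn, the protease that cleaves cathepsin precursors, did not pass (log2 change -0.14, adjusted p 0.38). Of 7 antigen presentation genes tested, 3 were higher (Cd74, H2-Eb1 3.03-fold and H2-Ab1 2.41-fold) and 1 was lower (H2-DMa, 2.21-fold).

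Of 12 sorting genes, 3 were higher in ATII cells and 1 lower, a share near the 31.1% of all features. Scarb2, the carrier of glucocerebrosidase, was 2.01-fold higher, Gnptab, which makes the mannose 6-phosphate tag, 1.74-fold higher, and Igf2r, its larger receptor, 1.50-fold higher. Vps26a, a retromer subunit, was 1.64-fold lower. On either slide alone 0 sorting genes were called higher. Of 21 other hydrolases and members of the Ctsa complex, 2 were higher (Manba, 1.87-fold, and Arsb, 1.43-fold) and 9 lower, led by Lipa (2.32-fold), Idua (2.21-fold) and Hexa (1.90-fold). The lower count was 2 on slide 2 alone, and the higher count ran from 0 there to 4 without fibroblast vehicle replicate 4 and was 1 without ATII vehicle replicate 4. Neu1 and Glb1, the enzymes that Ctsa protects, did not pass (log2 changes 0.27 and -0.16, adjusted p 0.0953 and 0.393). Of 27 membrane and proton pump genes, 0 were higher and 12 lower, with a median of -0.32 against -0.13 over all features. The lower ones were led by Laptm5 (9.93-fold) and Cd68 (4.07-fold), which also stand on the macrophage marker list, and Clcn7 (1.72-fold). The count was 4 on slide 2 alone and 5 after a surface from the mean of all arrays was subtracted.

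Of 11 MiT/TFE transcription factors and partners tested, 3 were lower in ATII cells and 0 higher, a share near the 31.1% of all features. Tfec, a family member of myeloid cells, was at least 6.26-fold lower, Mitf 1.89-fold lower and Rragc 1.47-fold lower, and on slide 2 alone 1 was lower. The fitted log2 change of Tfec ran from -5.062 to -1.323 over the alternatives, so its bound holds for the processing used here. Tfeb and Tfe3, the main activators of lysosomal genes, did not pass (log2 changes 0.05 and 0.24, adjusted p 0.888 and 0.0816). Of 10 other proteases set beside the cathepsins, 7 were higher and 1 lower. In ATII cells the gelatinase Mmp9 stood at least 102-fold higher, Plat 5.48-fold higher, and Plau 2.10-fold lower. The Mmp9 bound also holds for that processing, and its fitted log2 change was as low as 4.782 over the alternatives.

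Under BAPN in fibroblasts few genes of these lists passed, where 13.1% of all features were called. All the genes named here lie in columns 89 to 152 of the array, in the region above column 82 where 24.7% of features were called against 1.36% elsewhere, and the part of position in these calls was not tested. No call named here held in every alternative: Sort1 was lost in 4 of 28, Gnptab in 18, and Atp6v1h and Cd63 in 22. Of 27 membrane and pump genes, 4 were higher and 0 lower, a share near that of all features. Among them were Lamp2, a structural protein of the lysosomal membrane (1.50-fold, adjusted p 0.0201, limma), Atp6v1h, a proton pump subunit (1.42-fold, adjusted p 0.0497), and Cd63, a tetraspanin of late endosomes (1.39-fold, adjusted p 0.046). This count was 0 on quantile normalized values and 12 after a surface from the mean of all arrays was subtracted, and without fibroblast BAPN replicate 2 or fibroblast vehicle replicate 4 it was 0. Of 12 sorting genes, Gnptab was higher (1.65-fold) and Sort1, the sortilin receptor (1.88-fold), and Nagpa, which uncovers the mannose 6-phosphate tag (1.39-fold), were lower, and each direction ran from 0 to 2 over the alternatives. Of 21 hydrolases, Asah1, the acid ceramidase (1.67-fold), and Neu1 (1.35-fold) were higher, a count that ran from 0 to 2. Single calls were Cst10 among 11 cystatins (2.82-fold lower), Fnip2 among 12 MiT/TFE factors and partners (1.58-fold higher) and Pga5 among 9 other proteases (3.87-fold lower). In ATII cells 0 genes of these lists were called by limma with BAPN, as was no feature of the whole array.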

How the data were processed

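Agilent single-colour arrays of 15 samples were scanned and quantified by the authors with Feature Extraction 10.7.3.1, per the submitters' processing notes. The values used are the deposited intensity of each spot after that software's background subtraction, per the file headers. The deposited series table holds log2 values with quantile normalized columns, as the values show (r at least 0.999 with each array's own scanner values), and served as an alternative. The authors' own statistical test is not given in the sources used here.

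Control spots and 469 probes with outlier marks were left out of 55681 probes, spots of a probe were averaged, log2 was taken and each array's 75th percentile subtracted. Probes were named by accession (27422), symbol (3488) or older symbol (507) through RefSeq, and 24264 stayed unnamed. The brightest probe stood for a gene. A feature was tested where 3 or more arrays of the compared groups detected it well above background, and the test was run with limma 3.58.1 (R 4.3.3; lmFit with 4 group means over all arrays, eBayes, 11 residual degrees of freedom), with Benjamini-Hochberg adjustment over all features and a threshold of 0.05. The code was tested on simulated data with known changes. Promoter windows are from RefSeq (GRCm38.p6). Python 3.11.15 was used for reading and plotting.

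The members, lists and tests were chosen with earlier results of these data known. The text names all members, up to 3 called genes per list and direction with the largest change, and for members that differed by more than 1 (log2) between cell types in vehicle the 2 genes of highest r. Genes named without a call (such as Lgmn, Neu1, Tfeb) were added with their values known. Marker lists were for macrophages and leukocytes, fibroblasts and ATII, alveolar type I, airway and endothelial cells. In vehicle, ATII against fibroblasts, the alveolar type I list had 4 higher and 1 lower of 7 tested, the airway list 4 and 0 of 7, and the endothelial list 0 and 0 of 4. Same-numbered samples always shared a slide. Deviations from the group means of same-numbered fibroblast and ATII vehicle samples correlated at 0.23 to 0.33 (4 pairs), and those of differently numbered ones on one slide at 0.19 to 0.31, so number and slide cannot be told apart there. For fibroblast vehicle and BAPN samples the values were -0.08 to 0.10 (3 pairs), against -0.38 to -0.26 for differently numbered ones on one slide. For ATII vehicle and BAPN samples they were -0.15 to 0.23 (3 pairs) against -0.25 to -0.15. For BAPN samples of both cell types they were 0.16 to 0.23 (2 pairs) against 0.27 to 0.35. Same-numbered samples were thus more alike than others on their slide between fibroblast vehicle and BAPN. In ATII cells the replicate 1 pair (0.23) stood apart, while the pairs of replicates 3 and 4 (-0.15 each) lay near the highest of the others (-0.15). Replicate 5, whose label gives no number, was counted as differently numbered. Whether the numbers pair the samples was not tested. The fits have no block.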

Additional observations from a re-analysis of the deposited data

How the results depend on the processing

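Between the cell types in vehicle, 6 to 8 members were called over all alternatives (7 to 8 when 1 array was left out), and under BAPN 4 to 7 (5 to 7 when 1 array was left out) except on slide 2 alone, where 2 were called: Ctsa, Ctsc and Ctsk did not pass there, with 1 ATII BAPN array on that slide. No member's change that was called reversed. Ctsh in vehicle was called in 5 alternatives, and under BAPN Ctsd was called in 5 and Ctsz in 4, with adjusted p down to 0.0243, 0.00121 and 0.00601. A stricter filter left Ctse untested. For BAPN in either cell type and for the difference, 0 members were called in all 28 alternatives. Whether replicate numbers pair the samples is not stated, and in vehicle all 4 same-numbered pairs of fibroblast and ATII samples varied together, as did others on their slide. Between fibroblast vehicle and BAPN, same-numbered samples were more alike than others on their slide (r -0.08 to 0.10 against -0.38 to -0.26). A replicate block, fitted without ATII BAPN replicate 5, called 7, 5, 0, 0 and 0 members in the 5 comparisons. With it, the features called in the fibroblast BAPN comparison went from 4211 to 0. They went to 3619 when that array was left out with no block. That count was 2048 with only the fibroblast groups in the model, 312 on slide 1 alone, 6956 on slide 2 alone, 885 without fibroblast BAPN replicate 2, 1696 without fibroblast vehicle replicate 2, 1848 without fibroblast vehicle replicate 4 and 1724 without fibroblast BAPN replicate 4. In ATII cells it was 5258 on slide 2 alone. The position surface from the mean of all arrays was chosen after seeing the data. The causes were not tested.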
